A study of Rattus norvegicus with 20 samples.

Results

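The retinoic acid genes described here in rat auditory neurons, between postnatal days 3 and 21, code for proteins that bind, make, break down or sense retinoic acid. There are 8: Crabp1, Crabp2, Aldh1a1, Aldh1a2, Cyp26b1, Rara, Rarb and Rxrg. They were chosen by name, and every probe set whose platform annotation gives exactly 1 gene with one of these symbols was taken. This gave 10 probe sets for the 8 genes, with 2 each for Cyp26b1 and Rxrg, out of 20826 probe sets with 1 gene, which stand for 14217 genes. All 10 passed the filter on low values, a level above log2 4 on at least 5 of 15 arrays.

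The cells are globular bushy cells, neurons of the ventral cochlear nucleus whose axons cross the brainstem and end as the calyx of Held, a giant synapse. Sprague Dawley rats received the retrograde tracer cholera toxin B at the target of these axons, the medial nucleus of the trapezoid body of the other side, and were killed 24 hours later. From each animal 200 labelled cells were cut with a laser from frozen sections of 12 µm and pooled. The groups are 6 animals at P3, just after the calyx has formed, 9 at P8, with a juvenile synapse, and 5 at P21, with a mature synapse, 1 array each. No genotype other than the strain is given, and every animal had the tracer injection, so no animal without it was compared. The samples are labelled as biological replicates, and litters are not given. Levels are log2(intensity + 1) throughout, and the number of arrays limits their precision. The probe sets cannot be set against each other in level, so each is compared only with itself across ages.

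Retinoic acid is made from vitamin A by oxidation of retinol to retinaldehyde and then by retinaldehyde dehydrogenases such as Aldh1a1 and Aldh1a2. Inside the cell it is bound by Crabp1 and Crabp2, carried to nuclear receptors (Rara, Rarb) that pair with retinoid X receptors (Rxrg), and oxidised by Cyp26 enzymes. In the embryonic hindbrain it patterns the segments from which the cochlear nuclei arise, partly through Hox genes.

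Receptor pairs bind direct repeats of a short hexamer, and Rarb and Cyp26a1, a close relative of Cyp26b1, are textbook genes with such a repeat near their start. The reference promoters of the genes described here were searched for 2 hexamers in the same orientation with a spacer of 5, 2 or 1 bases, on both strands. A hexamer could read AGTTCA, or it could differ from this in the first base and read GGTTCA, or in the third base and read AGGTCA, or in both of these and read GGGTCA. The windows run from 250 bases before to 50 bases after the start in RefSeq, build GRCr8. All 8 genes had a promoter in the reference, and 1 of them, Rarb, held a repeat, with a spacer of 5. Of 69 other retinoid genes measured on the arrays 54 had a promoter there, and 1, Cyp26a1, held one, also with a spacer of 5. The repeat with spacer 5 occurs in 128 of 33469 promoters, or 0.382%, that with spacer 1 in 0.233% and that with spacer 2 in 0.17%. Both stretches are shown because their genes stand for the receptor that senses retinoic acid and for the enzyme family that removes it, with the hexamers in capitals. They lie at chr15:11336410-11336439 for Rarb and chr1:244883724-244883753 for Cyp26a1, both genes being on the plus strand.
Rarb: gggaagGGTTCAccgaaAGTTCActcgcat
Cyp26a1: taaagaTGAACTttgggTGAACTaatttgt
The Rarb repeat spans 24 to 40 bases after the first transcribed base and reads in the direction of the gene. The Cyp26a1 repeat spans bases -92 to -76 and reads on the opposite strand, so its hexamers appear here as their reverse complement. These are matches of letters in a reference genome, and the arrays hold no measurement of binding.

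Not all arrays were alike. The arrays of P8 replicates 5 to 9 had spike-in controls averaging 12.94 to 13.85, where the 15 remaining arrays had 8.53 to 9.36. Their median intensity lay between 58.9 and 67.5, and that of the remaining arrays between 23.8 and 32.5. Their correlation with P8 replicates 1 to 4 across probe sets was 0.49 to 0.61. They are therefore given apart, and tests use P3, P8 replicates 1 to 4 and P21. Within P8 replicates 1 to 4, replicates 1 and 4 correlated at 0.94 and the other pairs at 0.87 to 0.90. Replicates 2 and 3 differ from 1 and 4 in several of the genes below, so each result at P8 that rests on them is also given without them, a setting chosen after their values had been seen.

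Markers of the labelled cell type had higher means at later ages. Of 17 listed markers of globular bushy cells and fast auditory neurons 14 were measured and none was at 0 on any array. No marker of any other listed cell type was at 0 either, so this does not tell cell types apart. The mean level of the 14 markers was 6.83 ± 0.18 at P3 (SD, n = 6), 8.27 ± 0.53 in P8 replicates 1 to 4 (SD, n = 4) and 9.37 ± 0.15 at P21 (SD, n = 5). In P8 replicates 2 and 3 it was 7.75 and 8.03, and in replicates 1 and 4 it was 8.31 and 8.99. Other cell types also left signal, and 13 measured oligodendrocyte and myelin markers averaged 5.11 ± 0.41 at P3 (SD, n = 6), 7.49 ± 0.51 in P8 replicates 1 to 4 (SD, n = 4) and 8.29 ± 0.32 at P21 (SD, n = 5). Between P21 and P3 the means of oligodendrocyte precursors and inhibitory neurons fell by 0.66 and 0.91 (exact permutation adjusted p = 0.0245 and 0.0286), and those of meninges, choroid plexus, astrocytes, endothelium, microglia and granule cells passed no adjusted test between these ages. Around P8 the mean of cerebellar granule cell markers fell by 0.59 between P8 and P3 (exact permutation adjusted p = 0.0245) and that of oligodendrocyte precursors by 0.72 between P21 and P8 (exact permutation adjusted p = 0.0286), and the part of either in the results below was not tested. In these bulk samples fewer cells of a type and less RNA per cell cannot be told apart.

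Between P8 and P3, 2 of the 10 probe sets rose, those of Crabp1 and Rxrg (1370981_at), and none fell. Of all 15647 probe sets tested limma called 15.6%, 7.81% higher and 7.75% lower at P8. Between P21 and P8, 3 of 10 fell, those of Crabp1, Crabp2 and Cyp26b1 (1384392_at), and none rose, where 16.7% of all were called, 8.31% higher and 8.42% lower at P21. Between P21 and P3, Aldh1a1 and Rxrg (1370981_at) rose and Crabp1, Aldh1a2 and Rarb fell, which is 5 of 10, where 39.1% of all were called, 20.1% higher and 19.0% lower at P21. With 10 probe sets these counts lie near the background, and the genes called between P21 and P3 differ in direction. The median difference of the 10 probe sets was 0.74 for P8 vs P3, -0.54 for P21 vs P8 and -0.60 for P21 vs P3, beside -0.02, 0.05 and 0.02 over all probe sets tested.

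**Figure D1:**
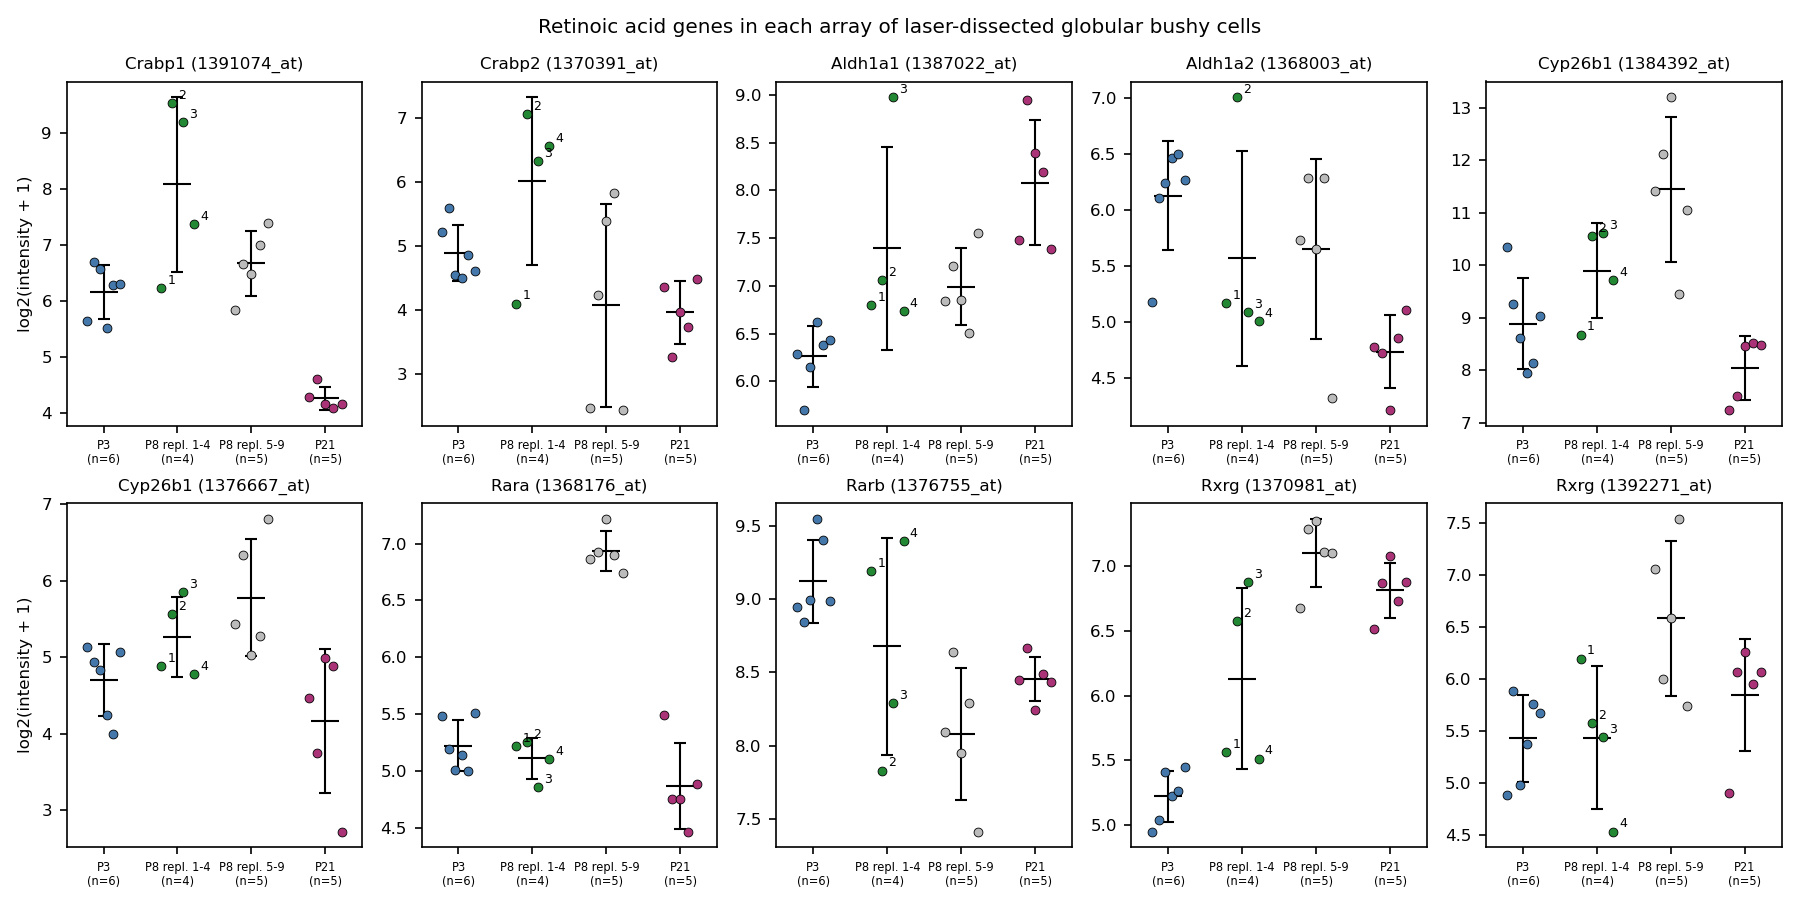
Levels of the 10 probe sets, as log2(intensity + 1) on the vertical axes, in each array at P3 (n = 6), P8 replicates 1 to 4 (n = 4, numbered), P8 replicates 5 to 9 (n = 5, grey) and P21 (n = 5); each panel has its own scale, and bars give the mean ± SD. Crabp1 is lowest in all 5 P21 arrays, Aldh1a1 and Rxrg (1370981_at) are higher in all 5 P21 arrays than in any P3 array, and P8 replicates 2 and 3 stand at the top of the P8 points for Crabp1.

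Both binding proteins had their highest mean in P8 replicates 1 to 4 and were lower at P21 than in these arrays. Crabp1, the cellular retinoic acid binding protein, had levels of 5.51 to 6.69 at P3 with a median of 6.29 (n = 6). In P8 replicates 1 to 4 the levels were 6.23, 9.53, 9.19 and 7.37, and at P21 they were 4.29, 4.61, 4.16, 4.09 and 4.17. All P21 arrays lay below every P3 and every P8 array, whereas 1 of the 4 P8 arrays lay within the range of P3. Crabp1 rose by 1.92 ± 0.50 (SE) between P8 and P3 (limma adjusted p = 0.0181), a 3.78-fold difference on this scale. It fell by 3.82 ± 0.52 between P21 and P8 (adjusted p = 2.19e-04) and by 1.90 ± 0.47 between P21 and P3 (adjusted p = 0.00464), the latest age being 14.1-fold below P8 and 3.74-fold below P3. 

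The rise at P8 rested on replicates 2 and 3, while both falls did not. Without P8 replicates 2 and 3 the Crabp1 difference between P8 and P3 was 0.64 ± 0.34 (adjusted p = 0.267). Leaving out either one alone also ended that call, at 1.43 ± 0.47 without replicate 2 (adjusted p = 0.0579) and 1.55 ± 0.51 without replicate 3 (adjusted p = 0.0588). The call was lost as well over all 20 arrays, at 1.14 ± 0.46 (adjusted p = 0.0693), and with array weights, at 1.12 ± 0.44 (adjusted p = 0.0995). Between P21 and P8 the difference without both was -2.54 ± 0.35 (adjusted p = 8.46e-04). In P8 replicates 5 to 9 Crabp1 stood at 5.85 to 7.39, also above every P21 array.

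Crabp2, the second binding protein, which delivers retinoic acid to its receptor in the nucleus, had levels of 4.49 to 5.59 at P3 with a median of 4.73. In P8 replicates 1 to 4 it had 4.10, 7.06, 6.32 and 6.56, and at P21 it had 4.36, 3.26, 3.96, 3.72 and 4.48. Here 3 of 4 P8 arrays lay above all P3 arrays and the fourth, replicate 1, below them, and at P21 only 2 of 5 arrays were above log2 4. Crabp2 fell by 2.05 ± 0.47 between P21 and P8 (adjusted p = 0.00797). The difference was 1.12 ± 0.45 between P8 and P3 (adjusted p = 0.106) and -0.93 ± 0.43 between P21 and P3 (adjusted p = 0.0972), although all P21 arrays lay below all P3 arrays. Without P8 replicates 2 and 3 the difference between P21 and P8 was -1.37 ± 0.53 (adjusted p = 0.131). Between P8 and P3 the difference was 0.77 without P8 replicate 2 (adjusted p = 0.28). In 13 alternatives other than leaving out 1 array it ran from 0.045 to 1.29 and was never called (adjusted p = 0.0527 to 0.961). Of the 15 fits that leave out 1 array, only that without P8 replicate 1 called Crabp2 between P8 and P3, at 1.76 ± 0.30 (adjusted p = 0.00244). Between P21 and P3 it would then be called too, at -0.93 ± 0.26 (adjusted p = 0.0111). A fit of only P21 and P3 also called it lower at P21 (adjusted p = 0.0114). In P8 replicates 5 to 9 Crabp2 ranged from 2.43 to 5.82, with a mean of 4.07. This mean lay below that of P3, 4.88, and near that of P21, 3.96.

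The synthesis enzymes moved in opposite directions between P3 and P21. Aldh1a1, a retinaldehyde dehydrogenase, had levels of 5.70 to 6.63 at P3 with a median of 6.33. It had 6.80, 7.06, 8.98 and 6.74 in P8 replicates 1 to 4 and 7.48, 8.95, 8.39, 8.20 and 7.38 at P21. Every P8 and every P21 array lay above every P3 array, and among the P8 arrays only replicate 3 reached the range of P21. Aldh1a1 rose by 1.82 ± 0.38 between P21 and P3 (adjusted p = 0.00153), a 3.53-fold difference. Between P8 and P3 the difference was 1.13 ± 0.41 (adjusted p = 0.0712) and between P21 and P8 it was 0.69 ± 0.42 (adjusted p = 0.29). Leaving out P8 replicates 2 and 3 made the difference between P21 and P8 1.31 ± 0.36, which was called (adjusted p = 0.0385), and without replicate 3 alone it was 1.21 ± 0.31 (adjusted p = 0.0195).

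Aldh1a2, the main retinaldehyde dehydrogenase of the embryo, had levels of 5.17 to 6.50 at P3 with a median of 6.25. It had 5.17, 7.01, 5.08 and 5.00 in P8 replicates 1 to 4 and 4.77, 4.72, 4.21, 4.86 and 5.11 at P21. At P3 replicate 1 stood below the other 5 arrays, which were at 6.11 or above, and at P8 replicate 2 stood above the other 3. All P21 arrays lay below all P3 arrays. Aldh1a2 fell by 1.39 ± 0.34 between P21 and P3 (adjusted p = 0.00458), a 2.63-fold lower level. The difference was -0.56 ± 0.36 between P8 and P3 (adjusted p = 0.315) and -0.83 ± 0.38 between P21 and P8 (adjusted p = 0.149). Without P8 replicate 2 alone Aldh1a2 would be called lower between P8 and P3, by -1.04 ± 0.27 (adjusted p = 0.0207). Aldh1a2 is also a textbook gene of the meninges, and 14 measured meningeal and fibroblast markers averaged 5.05 ± 0.18 at P21 (n = 5) and 5.21 ± 0.25 at P3 (n = 6), an exact permutation adjusted p of 0.326 over 36 two-sided tests. The summed intensity of these markers was 525 to 711 at P21 and 760 to 2927 at P3, and none was at 0. Their part in the fall of Aldh1a2 was not tested.

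The calls of Aldh1a1, Aldh1a2 and the receptor gene Rarb between P21 and P3 were lost when a GAPDH measure of RNA length was taken into the fit. For the GAPDH control probe sets the level at the 3' end minus that at the 5' end, larger where amplified RNA is shorter, averaged 3.99 ± 0.66 at P21 (SD, n = 5) and 2.91 ± 0.27 at P3 (SD, n = 6; exact permutation adjusted p = 0.0245). For beta-actin the same measure ran the other way, averaging 4.32 ± 0.69 at P21 (SD, n = 5) and 4.70 ± 0.30 at P3 (SD, n = 6). Its exact permutation adjusted p was 0.326, and it was not used as a covariate. With the GAPDH measure as a covariate the difference between P21 and P3 was 0.71 ± 0.43 for Aldh1a1 (adjusted p = 0.254). It was -1.14 ± 0.52 for Aldh1a2 (adjusted p = 0.128) and -0.59 ± 0.38 for Rarb (adjusted p = 0.289). The same covariate left Crabp1 and Rxrg (1370981_at) called between P21 and P3. Among all 15647 probe sets tested it lowered the calls between these ages from 6114 to 3404. Age and the GAPDH measure go together in these animals, so the covariate also takes up part of any difference between ages.

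Cyp26b1, a Cyp26 enzyme that oxidises retinoic acid, was measured by 2 probe sets. The brighter one, 1384392_at, had levels of 7.95 to 10.34 at P3 with a median of 8.82, then 8.68, 10.55, 10.61 and 9.72 in P8 replicates 1 to 4, and 7.24, 7.51, 8.47, 8.52 and 8.47 at P21. All P8 arrays lay above all P21 arrays. The wide range of P3 took in P8 replicates 1 and 4 and P21 replicates 3, 4 and 5, with P8 replicates 2 and 3 above it and P21 replicates 1 and 2 below it. It fell by 1.85 ± 0.49 between P21 and P8 (adjusted p = 0.0181), a 3.61-fold lower level. The difference was 1.00 ± 0.47 between P8 and P3 (adjusted p = 0.163) and -0.85 ± 0.44 between P21 and P3 (adjusted p = 0.146). Without P8 replicates 2 and 3 the difference between P21 and P8 was -1.16 ± 0.57 (adjusted p = 0.249), and leaving out either one ended the call, at -1.63 ± 0.53 without replicate 2 (adjusted p = 0.0571) and -1.61 ± 0.53 without replicate 3 (adjusted p = 0.0563).

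The dimmer Cyp26b1 probe set, 1376667_at, was not called between any ages in the fit of 15 arrays. Its levels were 4.00 to 5.14 at P3, 4.88, 5.56, 5.85 and 4.78 in P8 replicates 1 to 4, and 2.72 to 4.99 at P21. Its difference between P21 and P8 was -1.10 ± 0.42 (adjusted p = 0.084), in the same direction as that of the brighter probe set, and over the 15 arrays the pair correlated at 0.66. Over all 20 arrays the dimmer probe set was called lower at P21 than at P8, at -1.39 ± 0.39 (adjusted p = 0.0207). On the arrays set apart, P8 replicates 5 to 9, the brighter probe set stood at 9.46 to 13.20, above all P21 arrays and in 4 of 5 above every other array of the series.

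Of the receptors, Rara, the retinoic acid receptor alpha, was called between no ages in the fit of 15 arrays. It had levels of 5.00 to 5.51 at P3, 5.22, 5.26, 4.86 and 5.10 in P8 replicates 1 to 4, and 4.47 to 5.49 at P21, and the 3 ages overlapped. The difference between P21 and P3 was -0.35 ± 0.18 with a 95% interval of -0.73 to 0.03 (adjusted p = 0.13). In P8 replicates 5 to 9 it stood at 6.74 to 7.22, above all 15 other arrays, so the P8 level of Rara depended on which P8 arrays were read. Over all 20 arrays Rara was called lower at P21 than at P8, at -1.25 ± 0.39 (adjusted p = 0.0336). Without P21 replicate 1 it was called lower at P21 than at P3, at -0.51 ± 0.15 (adjusted p = 0.0196).

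Rarb, a receptor whose own gene is activated by retinoic acid, had levels of 8.85 to 9.55 at P3 with a median of 8.99. It had 9.19, 7.83, 8.29 and 9.40 in P8 replicates 1 to 4 and 8.45, 8.67, 8.24, 8.49 and 8.43 at P21. Every P21 array lay below every P3 array. At P8 replicates 1 and 4 lay within the range of P3, replicate 3 within that of P21, and replicate 2 below both. Rarb fell by 0.67 ± 0.25 between P21 and P3 (adjusted p = 0.0438), a 1.59-fold lower level, close to the threshold. The call was lost when any 1 of 10 of the 15 arrays was left out, 5 at P3 and 5 at P21, with adjusted p up to 0.0935, while over all 15 such fits the difference stayed between -0.72 and -0.58. Without P8 replicates 2 and 3 Rarb was called lower at P21 than at P8, by -0.84 ± 0.21 (adjusted p = 0.0235), against -0.22 ± 0.27 with them (adjusted p = 0.627). Against P3 the P8 difference was -0.45 ± 0.26 with them (adjusted p = 0.267) and 0.17 ± 0.20 without them (adjusted p = 0.648).

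Rxrg, the retinoid X receptor gamma, was measured by 2 probe sets that did not behave alike. The first, 1370981_at, had levels of 4.95 to 5.45 at P3 with a median of 5.24, then 5.56, 6.58, 6.88 and 5.51 in P8 replicates 1 to 4, and 6.51, 6.87, 7.08, 6.73 and 6.88 at P21. All P8 and all P21 arrays lay above all P3 arrays, and P8 replicates 2 and 3 lay within the range of P21. It rose by 0.91 ± 0.25 between P8 and P3 (adjusted p = 0.022) and by 1.59 ± 0.23 between P21 and P3 (adjusted p = 7.53e-05), which is 3.02-fold. Between P21 and P8 the difference was 0.68 ± 0.26 (adjusted p = 0.0832). The oligodendrocyte and myelin markers also rose at both steps against P3, by 2.38 at P8 and 3.19 at P21 (exact permutation adjusted p = 0.0245 for each), and their part in the levels of Rxrg and Aldh1a1 was not tested.

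The timing of the Rxrg rise depended on P8 replicates 2 and 3. Without them the difference between P8 and P3 was 0.32 ± 0.19 (adjusted p = 0.316) and that between P21 and P8 was 1.28 ± 0.19 and called (adjusted p = 0.0014). Between P8 and P3 it was 0.76 ± 0.26 without replicate 2 alone (adjusted p = 0.0692) and 0.66 ± 0.22 without replicate 3 alone (adjusted p = 0.0658). That call was also lost with the mean of both probe sets, at 0.46 ± 0.23 (adjusted p = 0.191), and with array weights, at 0.55 ± 0.20 (adjusted p = 0.0722). In a fit of only the ages compared it was 0.91 ± 0.28 (adjusted p = 0.0505) and with the GAPDH covariate 0.82 ± 0.26 (adjusted p = 0.0543), neither of them called. In P8 replicates 5 to 9 this probe set stood at 6.68 to 7.35, above all P3 arrays. The second probe set, 1392271_at, had levels of 4.88 to 5.88 at P3, 6.19, 5.57, 5.44 and 4.53 in P8 replicates 1 to 4, and 4.90 to 6.26 at P21, and was called between no ages. Its difference between P21 and P3 was 0.42 ± 0.30 with a 95% interval of -0.23 to 1.07 (adjusted p = 0.295), which does not reach the estimate of the first probe set, and the pair correlated at 0.40 over the 15 arrays.

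**Figure D2:**
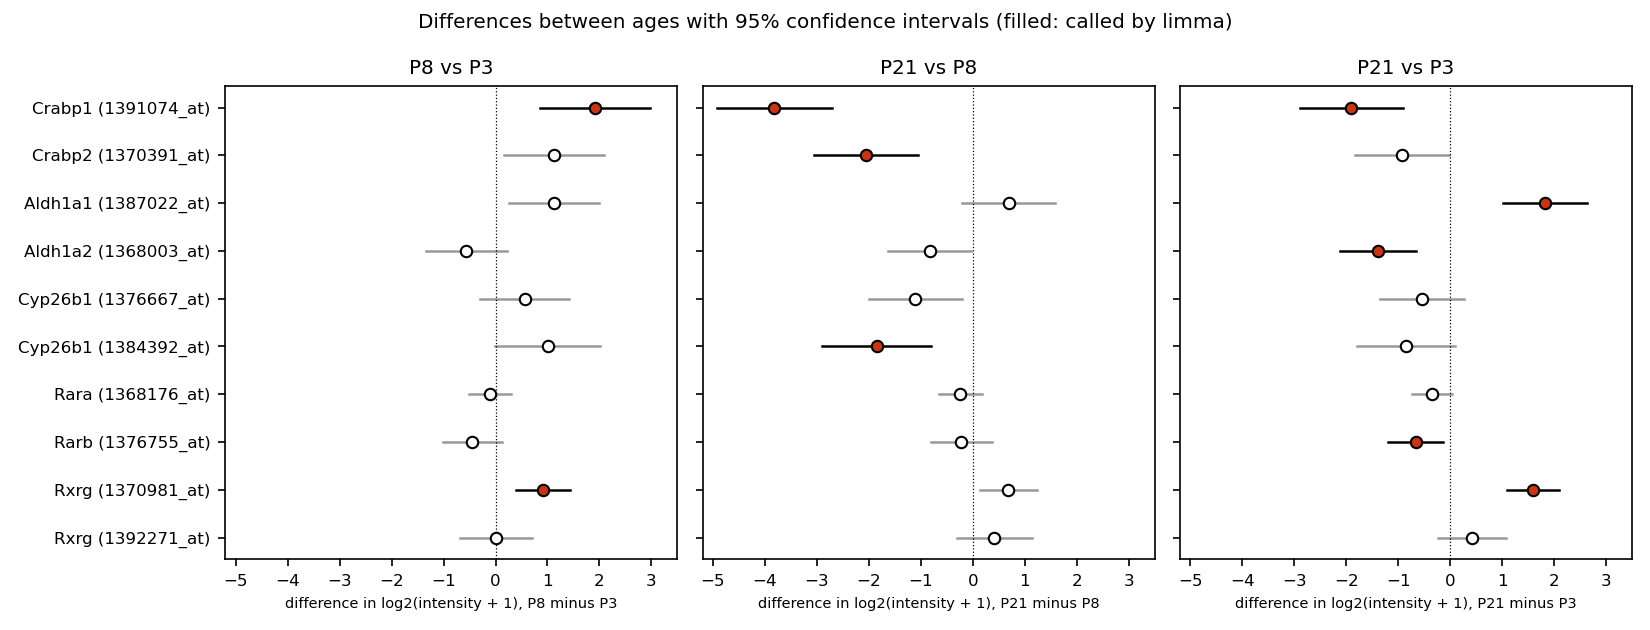
Differences in log2(intensity + 1) between ages for the 10 probe sets, with 95% confidence intervals, in panels for P8 vs P3, P21 vs P8 and P21 vs P3; filled points were called by limma at an adjusted p under 0.05. Crabp1 stands furthest from 0, at -3.82 for P21 vs P8, and Aldh1a1 and Rxrg (1370981_at) are the filled points above 0 for P21 vs P3.

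In order of level, P21 was below P3 for Crabp1 and Aldh1a2 with no overlap, and above P3 for Aldh1a1 and Rxrg (1370981_at) with no overlap. The groups of P21 and P3 also did not overlap for Crabp2 and Rarb, which makes 6 of 10 probe sets where 28.7% of all probe sets tested were so. P8 and P3 did not overlap for 2 of 10, Aldh1a1 and Rxrg (1370981_at), where 14.0% of all were so, and P21 and P8 for 2 of 10, Crabp1 and Cyp26b1 (1384392_at), where 14.1% were so. P8 was the highest age in mean for Crabp1, Crabp2 and both Cyp26b1 probe sets, and its arrays overlapped those of P3 for all of them.

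Several pairs of these genes varied together across the arrays. Over the 15 arrays Crabp1 and Crabp2 correlated at r = 0.86 (Spearman 0.87), at 0.73 without the 2 arrays farthest from the Crabp1 median, and at 0.65 after the mean of each age was removed. P8 replicates 1 to 4 spread most, with an SD of 1.56 for Crabp1 and 1.31 for Crabp2, against 0.21 to 0.49 at P3 and P21. The value within ages therefore draws mostly on these P8 arrays. Crabp2 and Cyp26b1 (1384392_at) correlated at r = 0.81 (Spearman 0.75), at 0.76 without the 2 farthest and at 0.61 within ages. These values describe 15 arrays that share 3 ages and 1 scaling, and no test was made of them.

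Aldh1a1 and Rxrg (1370981_at) correlated at r = 0.89 (Spearman 0.90), at 0.91 without the 2 arrays farthest from the Aldh1a1 median, and at 0.67 within ages. Rarb ran against Rxrg, at r = -0.79 (Spearman -0.72), at -0.83 without the 2 arrays farthest from the Rarb median and at -0.70 within ages. Crabp1 and Rarb correlated at -0.09 over all arrays but at -0.79 within ages, where P8 replicates 2 and 3 were high in Crabp1 and low in Rarb. Without the 2 arrays farthest from the Crabp1 median, r over ages was 0.78, so the sign depended on 2 arrays.

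**Figure D3:**
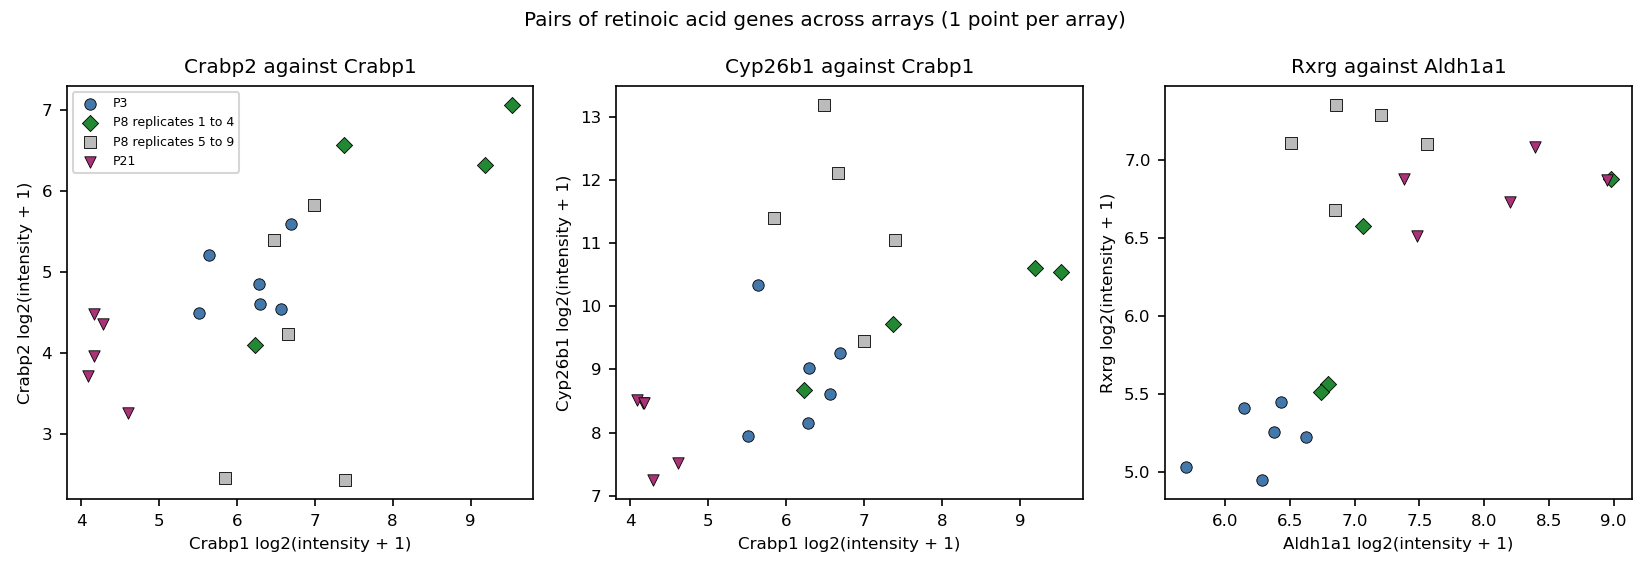
Pairs of genes across arrays in log2(intensity + 1), 1 point per array, for Crabp2 against Crabp1, Cyp26b1 (1384392_at) against Crabp1 and Rxrg (1370981_at) against Aldh1a1, with P3 (n = 6), P8 replicates 1 to 4 (n = 4), P8 replicates 5 to 9 (n = 5) and P21 (n = 5) in different symbols. P8 replicates 2 and 3 lie at the upper right of the first panel, and P3 and P21 arrays lie apart from each other in the third.

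For the 7 genes called between any ages, each by its brightest probe set, the genes with the most similar pattern were sought among 7238 or 7239 genes averaging at least log2 6, by Pearson's r over the 15 arrays. For Crabp1 they were Dgat2, Ide and Numbl, at 0.95, 0.93 and 0.93, and Cdr2 was the most opposite at -0.94. For Crabp2 they were Crabp1, Tpbg and Cbln2, at 0.86, 0.86 and 0.83, with Rmi1 at -0.87. For Aldh1a1 they were Slc25a17, Gas2l1 and Smap2, at 0.94, 0.93 and 0.91, with Gnal at -0.94. Crabp1 was thus the gene most like Crabp2 in the search. Crabp2 itself averaged below log2 6, so the search could not return it for Crabp1.

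For Aldh1a2 the nearest were Smad5, Arl15 and Cul7, at 0.91, 0.91 and 0.90, with Ube2q2 at -0.93. For Cyp26b1 (1384392_at) they were Cdk8, Appbp2 and Luc7l3, at 0.89, 0.83 and 0.82, with Lamb2 at -0.86. None of the nearest genes of these enzymes is among the retinoid genes listed. The search left out genes below its threshold of mean level, among them Rdh10, Cyp26a1, Aldh1a3 and Crabp2. It could not return these, so their absence tells nothing about the neighbours of the enzymes. For Rarb they were Nhsl3, Ngfr and Kitlg, at 0.89, 0.88 and 0.87, with Inpp5b at -0.87. For Rxrg (1370981_at) they were C2h5orf22, Ercc3 and Tmem59l, at 0.95, 0.94 and 0.94, with Kctd12 at -0.96.

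The wider retinoid pathway was described with 87 further genes in lists of retinol transport, retinol and retinaldehyde enzymes, synthesis, breakdown, receptors and their partners, coregulators and target genes. Of these 69 were measured and 54 tested, each by its brightest probe set. Between P21 and P3, 11 rose, 12 fell and 31 were not called, so 42.6% were called, where 41.6% of all 11834 genes tested were called, 21.8% higher and 19.8% lower at P21. Between P21 and P8, 5 rose and 6 fell, or 20.4%, where 18.3% of all genes were called, 8.89% higher and 9.46% lower at P21. Between P8 and P3, 2 rose and 4 fell, or 11.1%, where 16.2% of all genes were called, 8.79% higher and 7.44% lower at P8. The median difference of the 54 genes between P21 and P3 was -0.03, beside 0.04 over all genes tested. The count between P21 and P3 fell to 12 of 54 with the GAPDH covariate, the measure that itself differed between these ages. Over all 20 arrays it fell to 8 of 63. Calls among all probe sets fell as well, so the loss was not limited to the retinoid genes. They went from 6114 of 15647 to 3404 of 15647 with the covariate, and to 2184 of 17321 over all 20 arrays. Of the genes called between P21 and P3, Rpe65, Rdh16 and Cdx1 reached the 5 arrays of the filter only together with the P21 arrays, where they were high, and their tests carry that choice. Rpe65 is also among the genes called between P21 and P8.

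Of 6 tested genes of retinol supply and storage, Rbp4, which carries retinol in blood, rose by 0.64 ± 0.20 between P21 and P3 (adjusted p = 0.0184). Rpe65, a retinoid isomerase of the eye, was called higher at P21 as well, by 2.63 ± 0.52 (adjusted p = 9.97e-04), the others not being called, so 33.3% were called beside 41.6% of all genes. Rpe65 averaged 5.63 ± 1.06 at P21 (n = 5) and 3.00 ± 0.99 at P3 (n = 6), and was above log2 4 on all 5 P21 arrays, 1 P8 array and no P3 array. Stra6, the cell-surface retinol transporter, differed by 0.33 ± 0.56 (adjusted p = 0.671). Its levels in P8 replicates 1 to 4 were 6.85, 5.22, 4.18 and 8.03, so replicates 2 and 3 were low.

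Of 14 enzymes acting on retinol and retinaldehyde, 4 rose and 2 fell between P21 and P3, or 42.9%, near the 41.6% of all genes. Dhrs3, which turns retinaldehyde back to retinol, had the largest difference of the 54 genes, 2.97 ± 0.52 (adjusted p = 3.64e-04). It had 5.17 to 5.79 at P3, then 7.78, 5.17, 4.43 and 8.07 in P8 replicates 1 to 4, and 7.89 to 8.64 at P21. At P8 replicates 1 and 4 were near the P21 arrays, and replicates 2 and 3 at or below the lowest P3 array. Without replicates 2 and 3 the difference between P8 and P3 was 2.54 ± 0.21 (adjusted p = 7.1e-05), against 0.98 ± 0.55 with them (adjusted p = 0.241), and the call between P21 and P8, 1.99 ± 0.57 with them (adjusted p = 0.027), was lost at 0.42 ± 0.22 (adjusted p = 0.276).

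The other enzymes that rose between P21 and P3 were Rdh14 (0.76 ± 0.20, adjusted p = 0.00799), Rdh16 (1.32 ± 0.46, adjusted p = 0.0322) and Akr1b10 (1.33 ± 0.27, adjusted p = 0.00133). Adh5, an alcohol dehydrogenase, fell by 0.99 ± 0.14 (adjusted p = 6.34e-05) and Sdr16c5, a retinol dehydrogenase, by 0.97 ± 0.30 (adjusted p = 0.0178). Rdh10, the retinol dehydrogenase that feeds synthesis in the embryo, differed by -0.25 ± 0.33 (adjusted p = 0.592). The synthesis enzyme Aldh1a3 and the breakdown enzyme Cyp26a1 were too dim for the filter, at 1.97 ± 0.69 and 4.07 ± 0.27 at P21 (n = 5) and 2.54 ± 1.38 and 3.13 ± 0.64 at P3 (n = 6). Without a filter Cyp26a1 was called higher at P21 than at P3, by 0.94 ± 0.27 (adjusted p = 0.015), and Aldh1a3 was not, at -0.56 ± 0.55 (adjusted p = 0.482).

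Of 10 further receptors and lipid-binding partners, 3 rose and 3 fell between P21 and P3, or 60.0% beside 41.6% of all genes. Those that rose were Rxrb, the retinoid X receptor beta (0.55 ± 0.13, adjusted p = 0.00385), Ppard, a nuclear receptor that pairs with retinoid X receptors (0.69 ± 0.15, adjusted p = 0.00239), and the thyroid hormone receptor Thrb (1.43 ± 0.54, adjusted p = 0.0476). Those that fell were Fabp5, a lipid carrier that can deliver retinoic acid to Ppard (-0.65 ± 0.14, adjusted p = 0.00173), the orphan receptor Nr2f1 (-1.43 ± 0.35, adjusted p = 0.00464) and Thra (-0.87 ± 0.19, adjusted p = 0.00234). Fabp5 was at 10.57 ± 0.21 at P21 (n = 5) and 11.22 ± 0.13 at P3 (n = 6), with no overlap. Rarg differed by 0.69 ± 0.33 (adjusted p = 0.107), and Rxra was too dim for the filter, at 2.22 ± 0.29 at P21 (n = 5) and 2.98 ± 0.49 at P3 (n = 6). Without a filter Rxra was called lower at P21, by -0.76 ± 0.24 (adjusted p = 0.0242). Of 11 coregulators, the corepressor Ncor1 fell, by 0.51 ± 0.16 (adjusted p = 0.0211), and the others were not called, which is 9.09%.

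Of 13 genes known as targets of retinoic acid in other tissues, 2 rose and 6 fell between P21 and P3, or 61.5% beside 41.6% of all genes. Rarres2, which codes for chemerin, rose by 1.85 ± 0.19 (adjusted p = 2.66e-06) and the homeobox gene Cdx1 by 1.46 ± 0.43 (adjusted p = 0.0143), Cdx1 being dim at 4.54 ± 0.14 at P21 (n = 5) and above log2 4 on only 3 of the other 10 arrays. The homeobox gene Meis1 fell by 1.56 ± 0.13 (adjusted p = 4.58e-07), and the receptor tyrosine kinase gene Ret by 1.97 ± 0.26 (adjusted p = 3.61e-05). Meis1 had 10.65 ± 0.07 at P3 (SD, n = 6), 10.05 ± 0.09 in P8 replicates 1 to 4 (SD, n = 4) and 9.09 ± 0.26 at P21 (SD, n = 5), and the ages did not overlap. The other genes that fell were Meis2, Tgm2, Rai14 and Hoxb2, by 0.87 to 1.19.

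**Figure D4:**
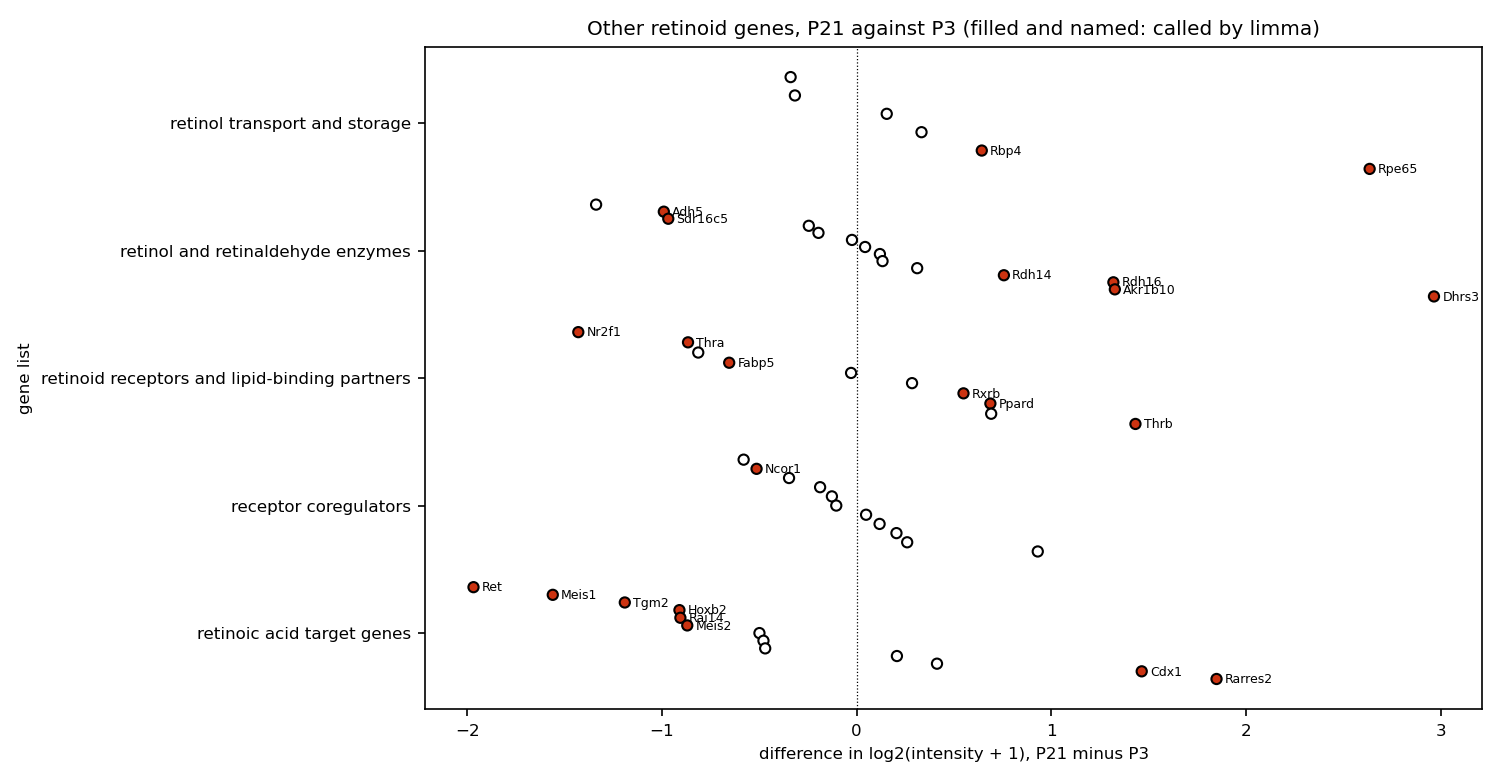
Differences between P21 and P3 in log2(intensity + 1) for the 54 tested genes of the wider retinoid pathway, 1 point per gene, grouped by list; filled and named points were called by limma at an adjusted p under 0.05. Filled points lie on both sides of 0 in most lists, with Dhrs3 furthest to the right at 2.97 and Ret furthest to the left at -1.97.

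At P8 the called genes of the wider pathway included a homeobox gene whose call in the fit of 15 arrays rested on 2 of them. Hoxd4, a hindbrain Hox gene, had 3.17 to 4.25 at P3, then 4.87, 8.33, 8.93 and 4.87 in P8 replicates 1 to 4, and 3.12 to 4.85 at P21. Replicates 2 and 3 were far above every other array of the 15, while replicates 1 and 4 were close to the top of P21. It rose by 2.82 ± 0.69 between P8 and P3 (adjusted p = 0.014) and fell by 2.41 ± 0.72 between P21 and P8 (adjusted p = 0.0326). Without replicates 2 and 3 these differences were 0.95 ± 0.40 (adjusted p = 0.158) and -0.53 ± 0.40 (adjusted p = 0.488). In P8 replicates 5 to 9, whose median intensity was higher, Hoxd4 stood at 6.74, 6.14, 1.58, 6.51 and 5.77. Over all 20 arrays its differences were 2.04 ± 0.74 between P8 and P3 (adjusted p = 0.0471) and -1.63 ± 0.78 between P21 and P8 (adjusted p = 0.128).

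Hoxa5 and Hoxb4, further Hox genes of the target list, are named here after their values were seen. Hoxa5 had 4.02, 6.72, 8.39 and 1.2 in P8 replicates 1 to 4, and 1.26 to 2.17 at P3. Hoxb4 had 2.00, 6.18, 6.84 and 1.89 in these P8 arrays, and 1.26 to 2.07 at P3. The orphan receptor Nr2f2 had 9.28, 10.97, 11.31 and 9.65 there, and 9.13 to 10.15 at P3, so replicates 2 and 3 were again the high arrays. In P8 replicates 5 to 9 Hoxa5 stood at 3.66 to 5.67, Hoxb4 at 2.54 to 5.69 and Nr2f2 at 8.2 to 9.4. Over all 20 arrays Hoxa5 and Hoxb4 were called higher at P8 than at P3 (adjusted p = 0.00732 and 0.0172), and Nr2f2 was not (0.792).

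In these P8 arrays the markers of other cell types also differed. In replicates 2 and 3 the oligodendrocyte markers averaged 8.12 and 7.62, against 7.27 and 6.93 in replicates 1 and 4. The meningeal and fibroblast markers averaged 5.85 and 5.48 in replicates 2 and 3, against 5.11 and 4.95 in replicates 1 and 4, with summed intensities of 1302 and 933 against 691 and 800. Microglial markers ran the other way, at 4.71 and 4.17 in replicates 2 and 3, against 5.01 and 5.17 in replicates 1 and 4. Replicate 3 also had the lowest median intensity of the 15 arrays, 23.8, and the highest spike-in mean, 9.36. Its GAPDH 3' minus 5' measure was 3.86, where the other P8 arrays of the fit had 2.91 to 3.27. The part of these measures in the levels of Crabp1, Cyp26b1, Rxrg, Rarb and the Hox genes at P8 was not tested.

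**Figure D5:**
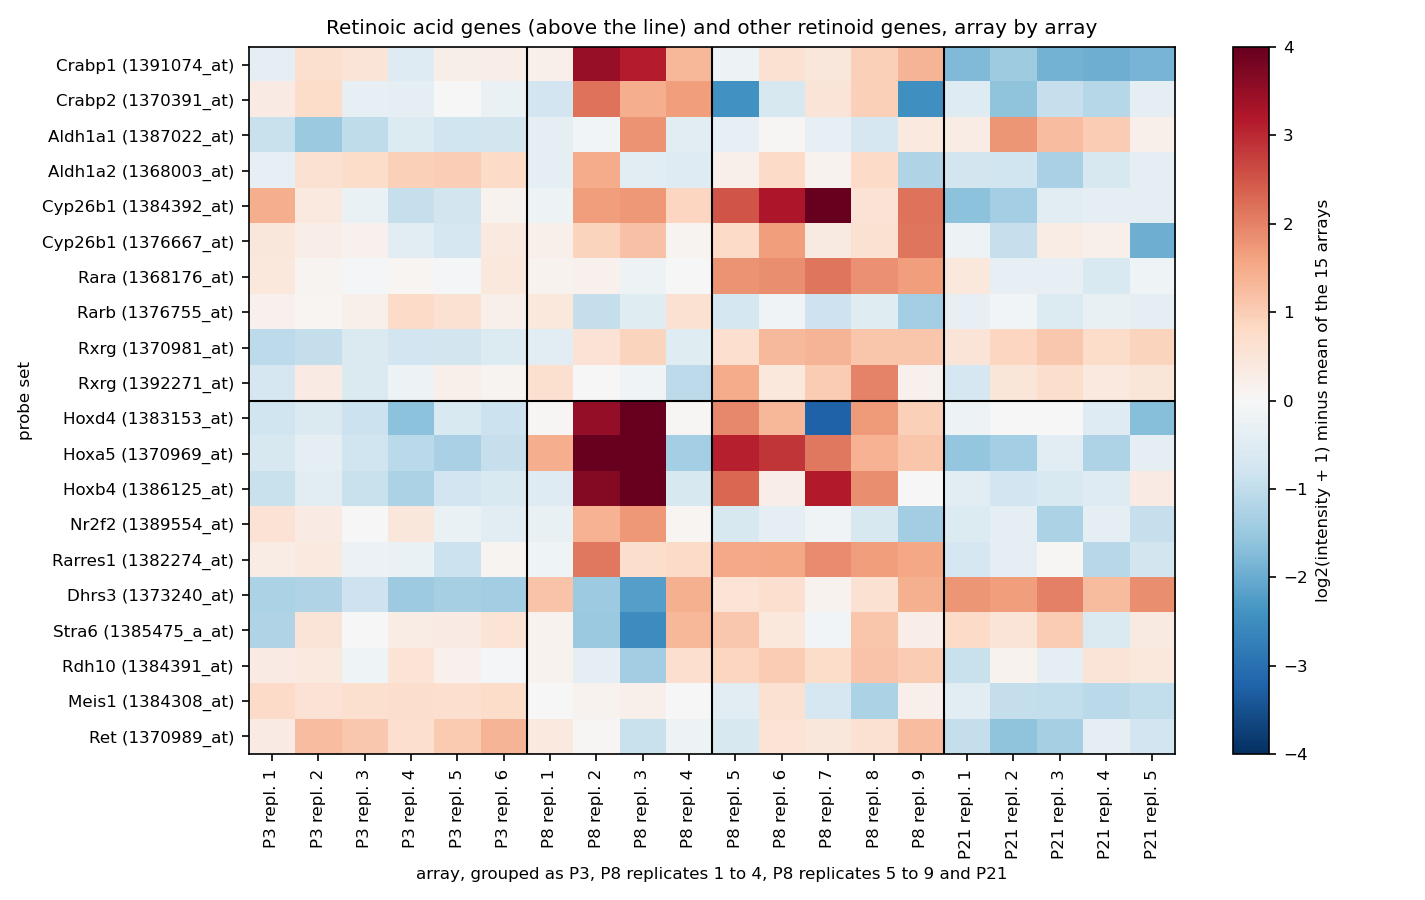
Colour gives each array's log2(intensity + 1) minus the mean of the 15 arrays of P3, P8 replicates 1 to 4 and P21, with red above and blue below and the scale ending at 4 and -4, for the 10 probe sets of the retinoic acid genes (above the line) and 10 of other retinoid genes picked after their values were seen. Columns for P8 replicates 2 and 3 are red for Crabp1, Hoxd4, Hoxa5 and Hoxb4 and blue for Dhrs3 and Stra6.

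The remaining calls of the wider pathway that involve P8 were of both directions. Between P8 and P3, Ppard rose by 0.66 ± 0.16 (adjusted p = 0.0141), while Adh5 fell by 0.68 ± 0.15, Meis1 by 0.59 ± 0.14, Tgm2 by 0.98 ± 0.29 and Ret by 1.12 ± 0.28. Between P21 and P8, Rbp4, Rpe65, Akr1b10 and Rarres2 rose besides Dhrs3, by 0.95 to 1.86. Rpe65 passed the filter only with the P21 arrays, where it was high, so its call carries that choice. Without a filter the adjusted p of Rpe65 was 0.053, which is not called. Between the same ages Fabp5, Nr2f2, Thra, Rarres1 and Meis1 fell besides Hoxd4, by 0.65 to 1.43. With P8 replicates 2 and 3 left out, which also leaves fewer arrays, Adh5 (adjusted p = 0.111) and Ret (0.115) lost their call between P8 and P3, at -0.44 and -0.87 against -0.68 and -1.12 with them. Rpe65, Fabp5, Nr2f2, Thra and Rarres1 lost theirs between P21 and P8 (adjusted p = 0.0877 to 0.281). Of these, Rpe65 and Thra kept about the same difference, at 1.80 and -0.65 without the pair against 1.86 and -0.67 with it. Fabp5 was at -0.51 against -0.65, Nr2f2 at -0.59 against -1.43 and Rarres1 at -0.85 against -1.41. Thrb was then called higher at P8 than at P3, by 1.37 ± 0.24 (adjusted p = 0.00458), its level in replicate 3 being 4.45 and in the other P8 arrays 7.48 to 8.69.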

How the data were processed

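RNA of pooled laser-dissected cells was amplified over 2 rounds with biotin added in the later one and measured on rat arrays, per the labels' protocols. The values deposited by the authors are intensities on a linear scale, 1 for each probe set of an array. GCRMA appears in the submitters' processing notes without a version. The tool behind the linear values was not given in the sources used here. Each array's mean intensity without the lowest and highest 2% of probe sets was 100.0, so arrays were used as deposited.

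Of 31099 probe sets, 57 are controls. By the platform annotation 20826 have 1 gene, 436 several, and 9780 are unnamed here. Symbols were updated through a RefSeq table of GRCr8 (20758 by Entrez identifier). A gene with several probe sets was represented, in the wider lists, by the one with the highest mean.

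Values were analysed as log2(intensity + 1), which understates changes of dim genes. limma 3.58.1 in R 4.3.3 (lmFit, eBayes, 3 ages in 1 fit) was run on 15 arrays, P8 replicates 5 to 9 being left out for their controls, and on 15647 probe sets above log2 4 on at least 5 arrays. Adjusted p-values are Benjamini-Hochberg over all of them, with calls under 0.05. The method was tested on simulated data with independent arrays and the same spread at every age. Those data do not cover P8 arrays that spread more or differ together. Marker means were compared by exact two-sided permutation tests over arrays, adjusted over 36.

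The members and lists were chosen with earlier results of these data known. Genes named are all members, up to 4 called genes with the smallest p per list and comparison, 12 direct partners of the pathway where measured, and the nearest 3 and the most opposite 1 by correlation. Genes beyond this are said to be so. Alternatives were all 20 arrays, other filters, a pseudocount of 16, quantile normalization, subtracted medians, other handling of several probe sets, array weights, an intensity trend, only the ages compared, the replicate number as a block, a GAPDH covariate and each array left out. P8 replicates 2 and 3 were left out after seeing the data.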

Additional observations from a re-analysis of the deposited data

Results flagged for a closer look

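Of 40 groups of 4 to 6 arrays, 4 held an array far from the others of its age by Dixon's test, where chance gives about 1 in 20 groups. Aldh1a1 was at 8.98 in P8 replicate 3, against 6.74 to 7.06 in the other 3 arrays of P8 replicates 1 to 4. Aldh1a2 was at 7.01 in P8 replicate 2, against 5.00 to 5.17 in the other 3, and at 5.17 in P3 replicate 1, against 6.11 to 6.50 in the other 5 P3 arrays. The second Rxrg probe set, 1392271_at, was at 4.90 in P21 replicate 1, against 5.95 to 6.26 in the other 4 P21 arrays.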

How the results depend on the processing

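The falls of Crabp1 at P21 against P8 and against P3, and the rise of Rxrg (1370981_at) at P21 against P3, kept their direction and call in all 14 alternatives and 15 fits that leave out an array. Of the called results, the others at P21 against P3 lost their call with the GAPDH covariate, which gave 2 members, 12 other retinoid genes and 3404 probe sets called, and Rarb also over 20 arrays (adjusted p = 0.188), without a filter (0.0582) and with the replicate block (0.0517). The cause was not tested. Over all 20 arrays, P8 against P3 had 4 members (Aldh1a1, Cyp26b1 1384392_at and Rxrg 1370981_at higher, Rarb lower, and Crabp1 lost at adjusted p = 0.0693), 20 other retinoid genes and 4486 probe sets called, and P21 against P3 had 8 other retinoid genes and 2184 probe sets. For P8 against P3, 1 member was called with the mean of probe sets per gene, in a fit of only the ages compared and with the covariate, Crabp1, while Rxrg lost its call (adjusted p = 0.191, 0.0505 and 0.0543). With array weights the 1 call was Aldh1a2, lower by -0.91 (adjusted p = 0.0493), Crabp1 (0.0995) and Rxrg (0.0722) being lost. Without P8 replicates 2 and 3 none was (Crabp1 adjusted p = 0.267, range over alternatives 0.0099 to 0.267), and 1348 probe sets were called. For P21 against P8, the other retinoid genes called were 7 with array weights, 5 in a fit of only the ages compared (with 1349 probe sets) and 5 without P8 replicates 2 and 3 (with 1463 probe sets). There Crabp2 lost its call over 20 arrays (adjusted p = 0.252), with weights (0.0661) and with the covariate (0.0572), and Cyp26b1 (1384392_at) with weights (0.12), where Aldh1a1 (0.0494) and Rxrg (0.00635) were called higher.

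Leaving out 1 array gave 0 to 3 members, 5 to 9 other retinoid genes and 1790 to 2503 probe sets for P8 against P3. It gave 2 to 4, 5 to 14 and 2072 to 2799 for P21 against P8, and 4 to 6, 17 to 25 and 5451 to 6675 for P21 against P3. The sign turned for differences that were not called. For P8 against P3, Rara was 0.90 over 20 arrays and 0.0042 with the covariate, Rarb was 0.17 without P8 replicates 2 and 3, and Rxrg (1392271_at) was -0.002 with weights, -0.20 with the covariate, -0.063 without P8 replicates 2 and 3 and -0.25 to 0.31 with 1 array left out. For P21 against P8, Aldh1a1 was -0.049 with the covariate, Rarb was 0.11 over 20 arrays and -0.50 to 0.019 with 1 array left out, and Rxrg (1392271_at) was -0.22 over 20 arrays and -0.0031 with the covariate. For P21 against P3, Rxrg (1392271_at) was -0.21 with the covariate.

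Samples of different ages with the same replicate number deviated together at most weakly (13 pairs, r -0.06 to 0.08, none above 0.1). Their median r was 0.0071, against -6e-04 for pairs with different numbers. Of 15 arrays 6 correlated best with their own number. Whether the numbers mark pairs was not tested, and the fit of 15 arrays does not use them. The replicate block gave 2, 2 and 4 members called for P8 against P3, P21 against P8 and P21 against P3, 2 and 7 other retinoid genes for P8 against P3 and P21 against P8, and 1306 probe sets for P8 against P3. Cyp26b1 (1384392_at) then had an adjusted p of 0.0761 for P21 against P8. Over all settings other than leaving out an array, 351 of 396 values of single probe sets kept their direction and side of the threshold, and 104 of 126 counts stayed within 1.5 times.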
